A study of Mus musculus with 12 samples.

Results

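The regions described here were open in FoxA2-expressing cells of both genotypes and were called open in neither population of FoxA2-negative cells. They came from ATAC-seq, in which a transposase cuts accessible DNA, of mouse embryos at embryonic day 7.5. Peaks of the 6 deposited lists on chromosomes 1 to 19 were merged into 93083 union regions wherever they overlapped by 1 bp or more. A union region was a member if it held a peak in the dHx High, dHx Middle, WT High and WT Middle lists and none in the dHx Negative or WT Negative list. The rule found 2005 members, 2.15% of the union regions (2.06 to 2.25%). This and the other ranges given after shares are Clopper-Pearson 95% intervals, which cover counting error only. Members were thus chosen by the authors' peak calls, and their presence in the 4 lists is a description with no test.

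All embryos were homozygous for a knock-in allele that joins FoxA2 through a flexible linker to the red fluorescent protein tagRFP, on a mixed background of C57Bl6/J and CD-1. In the mutant (dHx, labelled FoxA2-deltaHx-tagRFP) the allele lacks a stretch of 10 residues that forms an alpha helix. The control (WT, labelled FoxA2-WT-tagRFP) carries the same fusion with the helix, so it is not an unmodified embryo. The labels' protocols state that extraembryonic tissue was cut away, that about 10 embryos of both sexes were pooled for a sort and that 2000 to 5000 cells entered each library. Negative, Middle and High cells were separated by tagRFP signal, where Middle reaches up to the signal of heterozygous cells and High lies above it. The 12 samples form 6 groups of 2, and each group has 1 deposited peak list, built on the pool of its samples. No list has a replicate, so no difference between lists was tested and no p-value is given.

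The forkhead transcription factor FoxA2 is made in the definitive endoderm, the node and the notochord. It is the standard example of a pioneer factor, a protein that can bind its site on nucleosomal DNA and leave it more accessible to other factors. Forkhead factors recognise short AT-rich sequences of which TGTTTAC is typical. ATAC-seq shows where DNA is open and not which protein is bound, and a region called open in the sorted cells may be open in only some of them.

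Few members lay over gene starts, and those with forkhead letters there are shown first. RefSeq promoter windows (GRCm38.p6, the assembly of mm10; 250 bases before to 50 after a start) were used for 25720 genes. Members overlapped 132 of the 31365 windows, belonging to 119 genes. The letters TGTTTAC or TATTTAC, read on both strands, stood in 15 of those 132 windows (11.4%), in 6.64% of all 31365 windows, and in 4.37% of the 15252 windows that any union region overlapped. The windows differ in base composition, with a median GC content of 55.2% under members, 53.0% in all windows and 61.3% under any union region. In windows with a GC content of 40 to 60%, a limit chosen after the values were seen, the letters stood in 13 of 79 under members (16.5%), in 7.37% of all such windows and in 6.87% of those under any union region. Under regions with peaks in dHx High and dHx Middle and no other list they stood in 4.62% of 65 windows, and under those of WT High and WT Middle and no other list in 10.6% of 47. At a GC content of 40 to 60% these shares were both 14.3%, of 21 and 35 windows, close to the 16.5% under members. Under regions of both Negative lists alone they stood in 6.63% of 166 windows, and in 8.26% of 121 at that GC content. Other letters searched were CACCTG, in 26.5% of windows under members and 20.5% of all windows, and AGGTGT, in 12.1% and 13.8%. Read on opposite strands, these 2 can overlap each other. At a GC content of 40 to 60%, CACCTG stood in 21.5% of windows under members and 22.0% of all such windows. There AGGTGT stood in 16.5% of both. In 14 of the 15 windows the forkhead letters lay inside the member itself. A match of letters is a description and does not show that a factor binds there.

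In 6 of the 15 windows the gene is protein-coding, and in 5 of these the letters lie before the start. The 250 bases before the start of those 5 are printed 5′ to 3′ on the gene's strand, as the places where a kept region and forkhead letters coincide at a coding gene. Capitals mark TGTTTAC or TATTTAC or their reverse complements GTAAACA and GTAAATA. Trmt13 encodes a tRNA methyltransferase, Sycn the zymogen granule protein syncollin of the exocrine pancreas, Acsm3 an acyl-CoA synthetase and Akr1c12 an aldo-keto reductase. The other protein-coding gene with the letters was Tcf7, a transcription factor of the Wnt pathway, where they lay just after the start.
Trmt13 (chr3:116614588-116614837, minus strand): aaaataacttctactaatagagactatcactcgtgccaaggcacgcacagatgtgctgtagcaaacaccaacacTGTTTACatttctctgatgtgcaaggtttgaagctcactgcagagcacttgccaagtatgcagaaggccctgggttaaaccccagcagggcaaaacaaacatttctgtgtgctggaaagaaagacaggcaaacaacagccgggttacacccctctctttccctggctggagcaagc
Depp1 (chr6:116650434-116650683, plus strand): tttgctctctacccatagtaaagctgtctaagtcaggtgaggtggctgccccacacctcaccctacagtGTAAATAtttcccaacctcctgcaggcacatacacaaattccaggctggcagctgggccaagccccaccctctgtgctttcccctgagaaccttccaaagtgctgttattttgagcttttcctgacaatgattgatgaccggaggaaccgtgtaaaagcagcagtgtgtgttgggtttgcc
Sycn (chr7:28540635-28540884, plus strand): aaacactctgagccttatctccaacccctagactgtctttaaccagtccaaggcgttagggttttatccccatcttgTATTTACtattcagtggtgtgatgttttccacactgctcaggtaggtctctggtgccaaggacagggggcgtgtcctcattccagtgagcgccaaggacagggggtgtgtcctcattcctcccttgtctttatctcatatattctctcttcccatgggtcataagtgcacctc
Acsm3 (chr7:119760673-119760922, plus strand): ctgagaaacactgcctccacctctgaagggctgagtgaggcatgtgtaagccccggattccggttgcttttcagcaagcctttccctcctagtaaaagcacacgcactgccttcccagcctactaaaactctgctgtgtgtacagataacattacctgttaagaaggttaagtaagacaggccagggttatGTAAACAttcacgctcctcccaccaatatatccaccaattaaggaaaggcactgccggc
Akr1c12 (chr13:4279400-4279649, minus strand): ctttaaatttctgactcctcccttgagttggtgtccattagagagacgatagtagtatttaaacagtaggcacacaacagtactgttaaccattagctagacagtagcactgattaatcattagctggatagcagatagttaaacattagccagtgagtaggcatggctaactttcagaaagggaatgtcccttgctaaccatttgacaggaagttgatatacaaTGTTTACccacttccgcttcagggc

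The members over these starts differed in strength from list to list. Strength is given as the percentile of the authors' peak score among all peaks of the same list, from 0 for the weakest to 100 for the strongest, because the scores of different lists are not on 1 scale. The member at Sycn stood at percentile 71.0 in dHx High and 72.5 in dHx Middle, against 88.2 in WT High and 76.5 in WT Middle. The member at Acsm3 stood at 77.2 in dHx High and 91.9 in dHx Middle, against 85.7 in WT High and 72.0 in WT Middle. The member at Akr1c12 stood at 62.3 and 78.4 in dHx High and Middle, against 72.9 and 85.3 in WT High and Middle. These 3 were above the middle of every RFP-positive list, as was the member at Trmt13. The member at Depp1 stood at 62.3 and 64.8 in dHx High and Middle, against 30.2 and 76.5 in WT High and Middle, so it was a weak peak of WT High. The member at Trmt13 stood at 83.9 and 94.2 in dHx High and Middle, against 94.8 and 76.5 in WT High and Middle.

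Most members lay away from the ends of genes. Within 1 kb of either end of a protein-coding gene were 128 members (6.38%, 5.35 to 7.54%), against 18.2% of all union regions and 56.4% of the regions called in all 6 lists. When a peak had to cover 50% of a region to count, the share near a gene end was 14.7% of 1425 members. The cover was asked of Negative peaks too, so a region with a smaller Negative peak could become a member. With it, 209 members lay near a gene end, against 128 by the rule above. The gene table gives no strand, so the start and the end of a gene were not told apart here. Inside a gene, farther than 1 kb from its ends, were 962 members (48.0%, 45.8 to 50.2%), against 38.2% of all union regions. Outside genes were 915 members (45.6%, 43.4 to 47.8%), against 43.6% of all union regions, and these members lay a median of 38.9 kb from the nearest gene. No protein-coding gene lay within 100 kb of 270 members (13.5%), against 11.1% of all union regions. The regions found only in both Negative lists, which mirror the rule, were near a gene end in 9.28%, inside genes in 41.0% and outside genes in 49.7% of cases.

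Members were of middle strength and mostly simple in shape. Their median percentile was 56.8 in dHx High and 64.8 in dHx Middle, against 65.6 in WT High and 58.6 in WT Middle. Of the members, 550 (27.4%) lay at or above percentile 50 in all 4 lists, 22 (1.10%) at or above percentile 90 in all 4, and 775 (38.7%) below percentile 25 in 1 or more. The members' median width was 657 bp (quartiles 529 and 807), against 451 bp for all union regions and 1044 bp for those in all 6 lists. A union region spans all its merged peaks, so these widths depend on how many lists hold a peak. Within a list, the median width covered by peaks of members was 356 bp (WT Middle) to 471 bp (WT High). For regions of all 6 lists it was 590 bp in WT Middle and 709 bp in WT High. In 1960 members (97.8%) each of the 4 lists gave exactly 1 peak. At or above percentile 90 stood 4.19% of members in dHx High and 7.08% in dHx Middle, against 9.93% in WT High and 5.19% in WT Middle.

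**Figure D1:**
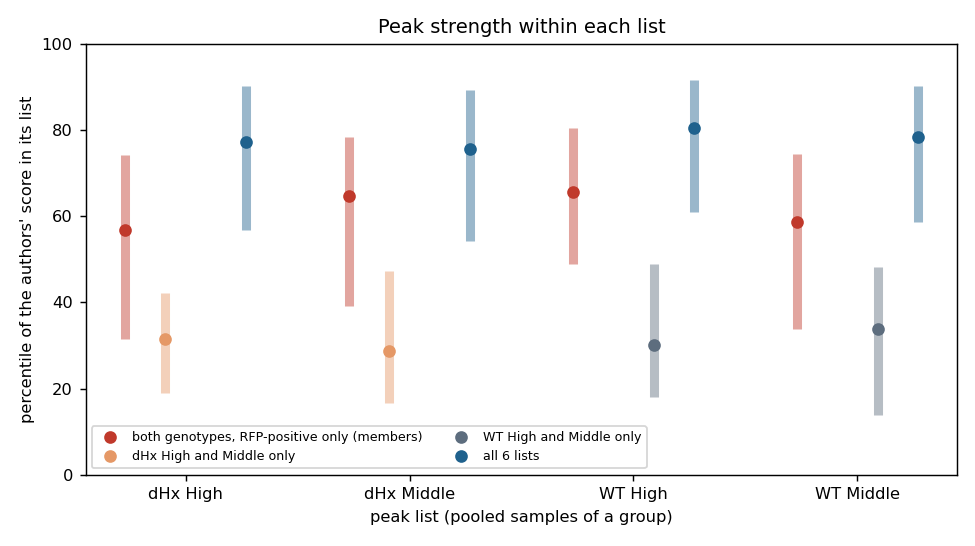
The x axis gives the 4 lists of RFP-positive cells and the y axis the percentile of the authors' peak score within a list, where points are medians and bars run between the quartiles over regions. Members (red) had medians of 56.8 to 65.6, between the regions of the High and Middle lists of 1 genotype only (28.7 to 33.9) and those of all 6 lists (75.7 to 80.5). The groups are set by which lists called a peak, so this order is not independent of the rule.

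Because the rule merges overlapping peaks, the peaks of a member had to lie near each other. Between the dHx High and WT High peaks of a member the centres were a median of 64 bp apart, and 67.7% were within 100 bp. Between dHx Middle and WT Middle the median was 57.5 bp, and 73.7% were within 100 bp. The median was 67.5 bp between dHx High and dHx Middle and 61.5 bp between WT High and WT Middle, so peaks of different genotypes were about as far apart as peaks of 1 genotype. Across the 2005 members the rank correlation of the scores (Spearman) was 0.45 between dHx High and WT High and 0.49 between dHx Middle and WT Middle. It was 0.31 between dHx High and dHx Middle and 0.22 between WT High and WT Middle. These are descriptions across regions, which share libraries and depth within a list.

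How many regions met the rule depended on the strength of the peaks. Of 4798 regions with a peak in dHx High and dHx Middle and none in dHx Negative, 2005 (41.8%) met the full rule and 563 (11.7%) had no peak in any WT list. Of 7046 regions with a peak in WT High and WT Middle and none in WT Negative, the same 2005 made up 28.5%, and 907 (12.9%) had no peak in any dHx list. A further 1319 regions of that WT set (18.7%) had peaks in both RFP-positive dHx lists and failed the rule only through a peak in dHx Negative. The dHx Negative list was the longest, with 48244 peaks on these chromosomes, against 38439 in WT Negative. In the mirror case, 493 of the dHx set (10.3%) failed only through a peak in WT Negative. With regions that had a peak in any Negative list left out, the regions were ranked by strength in 5 groups of equal size, and the strongest group was shared most often. In it, 84.7% of the dHx regions were in both RFP-positive WT lists, and 76.6% of the WT regions were in both RFP-positive dHx lists. In the weakest group these shares were 28.3% and 24.2%.

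**Figure D2:**
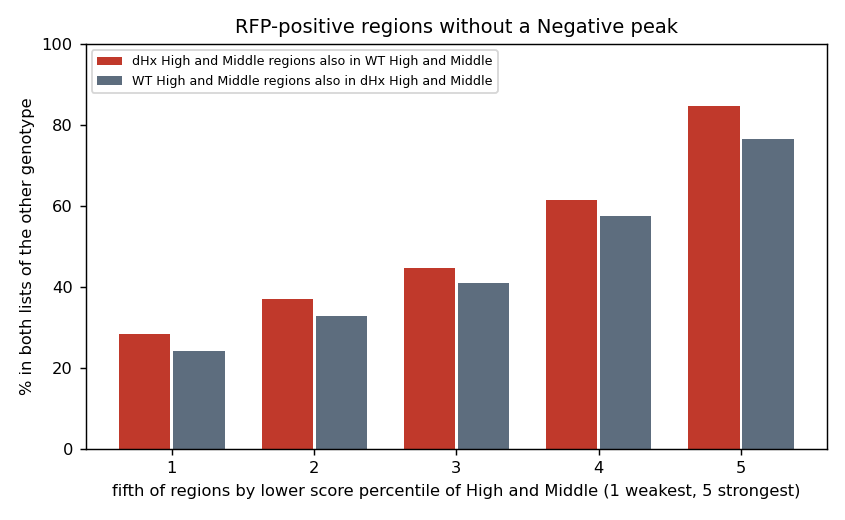
The x axis gives 5 groups of the High and Middle regions without any Negative peak, of equal size and ordered by the lower of their percentiles in the High and the Middle list, and the y axis the percentage found in both RFP-positive lists of the other genotype. From the weakest to the strongest group the share went up to 84.7% for dHx regions (red) and to 76.6% for WT regions (grey).

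The lists differ in length and in the weakest peak they hold, and the number of reads behind them is unknown here. On chromosomes 1 to 19 they held 36070 peaks (dHx High), 37611 (dHx Middle), 44195 (WT High) and 44539 (WT Middle). Members made up 5.68% of the union regions of dHx High and 5.52% of those of dHx Middle, against 4.69% in WT High and 4.72% in WT Middle. Whether a missing peak reflects depth or closed chromatin cannot be told apart with these files. At the edge of the rule, the members nearest to a Negative peak lay 7 bp (at Gmpr), 19 bp (Ttc6), 26 bp (Fam149a), 43 bp (Psmd7) and 53 bp (Tm6sf1) from it. The non-members that missed by least overlapped a Negative peak by 6 bp (at Gal3st1), 20 bp (Col1a2), 27 bp (no gene within 100 kb), 39 bp (Wapl) and 63 bp (Akap1). The median member lay 11.3 kb from the nearest Negative peak, and 134 members (6.68%) lay within 1 kb of one.

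The members with the highest lowest percentile over the 4 lists were found inside and outside genes of varied function. The first lay 1.58 kb from Ptprn2, a receptor-type phosphatase of secretory granules (mm10, chromosome 12, 116483377 to 116484116). It stood at percentile 97.1 in dHx High and 97.2 in dHx Middle, against 98.1 in WT High and 98.2 in WT Middle. The member inside Cald1, which encodes the actin-binding protein caldesmon (chromosome 6, 34725801 to 34726787), stood at 98.3 and 98.4 in dHx High and Middle, against 99.4 and 96.7 in WT High and Middle. The member inside Tcf7l1, a repressor of the Wnt pathway (chromosome 6, 72641317 to 72642174), stood at 99.2 and 95.7 in dHx High and Middle, against 98.6 and 96.3 in WT High and Middle. The member inside Rara, the retinoic acid receptor alpha (chromosome 11, 98952978 to 98953723), stood at 97.3 and 94.2 in dHx High and Middle, against 97.7 and 94.2 in WT High and Middle. These peaks stood above percentile 90 of each RFP-positive list, and neither Negative list held a peak there. The other members of the first 10 lay at LOC108168726, Ccdc130, Fhl2, Cdc14a, Myo16 and Tmem117, with a lowest percentile of 92.6 or more.

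Each member was given to the closest protein-coding gene if that lay within 100 kb, which gave 1735 members at 1501 of 20661 genes (7.26%). A single member stood at 1306 genes, 2 members at 165 and 3 or more at 30 genes. The most, 7, lay in Palld, which encodes palladin, a protein of the actin cytoskeleton. Genes with many regions had more chances of a member: of the 2021 genes with 10 or more union regions, 29.9% had one.

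Near genes of the definitive endoderm, members were more common than near all genes. Of the 400 union regions assigned to the 35 genes of that list, 28 were members (7.0%, 4.70 to 9.96%), against 2.10% of the 82713 regions assigned to any protein-coding gene. They lay at 17 of the 35 genes (48.6%), against 7.26% of all genes and 29.9% of genes with 10 or more union regions. The ratio of the shares was 3.34, and it ran between 2.18 and 3.58 over the alternatives run. When a peak, RFP-positive or Negative, had to cover 50% of a region to count, the share was 4.5%, against 1.53% near all genes. Regions of dHx High and dHx Middle alone numbered 4 near these genes (1.00%, against 0.619% near all genes), and regions of WT High and WT Middle alone numbered 2 (0.5%, against 0.965%). Of the 37 regions near endoderm genes with peaks in WT High and WT Middle and no Negative peak, 28 (75.7%, 58.8 to 88.2%) were in both RFP-positive dHx lists, against 45.8% near all genes. Most other lists also lay above 45.8%, among them the hedgehog (63.6%), ubiquitous (57.1%) and epithelial (54.8%) lists. Only the blood list (28.6%) and the epiblast list lay below it. Over all such WT regions the share ran from 24.2% in the weakest strength group to 76.6% in the strongest. Strength was not matched between lists, so a difference particular to endoderm genes was not tested. The gene lists were chosen with earlier results of these data known, so these shares describe the lists and no test was made of them.

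**Figure D3:**
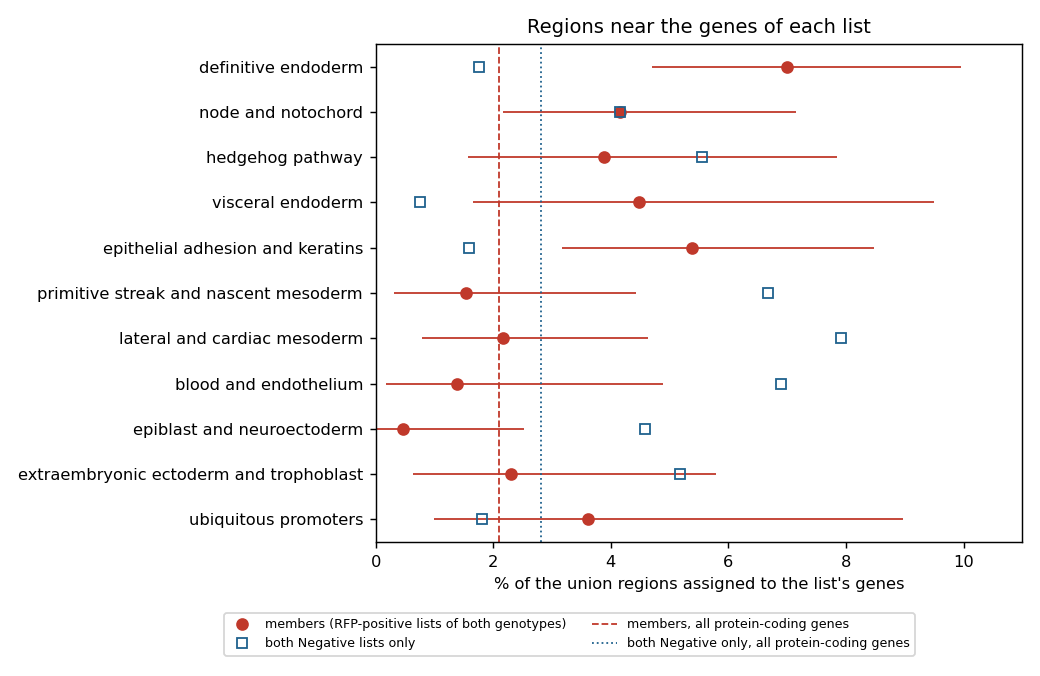
The x axis gives the percentage of the union regions assigned to a list's genes, for members (red points, with Clopper-Pearson 95% intervals) and for regions found only in both Negative lists (blue squares). The broken and dotted lines mark the values over all protein-coding genes. Members reached 7.0% near definitive endoderm genes and 0.459% near epiblast and neuroectoderm genes.

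Among transcription factors of the endoderm, Sox17 had 2 members of 14 union regions, Prdm1 had 2 of 16, and Foxa1, Otx2, Lhx1, Sox9, Eomes and Mixl1 had 1 each. The factors Gata4 (16 regions), Gata6 (15), Gsc (17), Hnf4a (8), Hhex (5) and Foxa3 (4) had none. Sox17, which drives endoderm formation, had a member 9.03 kb outside the gene (chromosome 1, 4506459 to 4507633). It stood at 31.5 and 88.3 in dHx High and Middle, against 78.4 and 80.0 in WT High and Middle. Foxa2 itself had 1 member of 33 regions, 52.4 kb outside the gene (chromosome 2, 147989681 to 147990466). It stood at 19 and 75.7 in dHx High and Middle, against 82.5 and 74.4 in WT High and Middle, so dHx High held its weakest peak.

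Of the other genes of the endoderm list, Rbm47, an RNA-binding protein of endodermal epithelia, had 3 members of 21 regions. The member 11.6 kb outside Rbm47 (chromosome 5, 66004195 to 66004975) stood at 90.2 in dHx High and 90.3 in dHx Middle, against 90.1 in WT High and 90.3 in WT Middle. Its rank was thus nearly the same in the 4 lists. Spink1, a secreted protease inhibitor, had 2 members of 7 regions, both outside the gene (chromosome 18, 43744904 to 43745653 and 43747707 to 43748306). Cxcr4, a chemokine receptor, and Cpm, a carboxypeptidase of the cell membrane, had 2 each, of 15 and 11 regions. Tmprss2, a membrane protease, and Rab15, a small GTPase, had 1 each. The surface and junction genes Epcam (9 regions), Emb (25), Cldn4 (5) and Cldn6 (2) and the secreted products Cer1 (2) and Trh (5) had no member.

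Near genes of the node and notochord, 12 of 289 regions were members (4.15%, 2.16 to 7.14%), against 2.10% near all genes. Another 12 were found only in both Negative lists. The members lay at 11 of 29 genes (37.9%), against 7.26% of all genes and 29.9% of genes with 10 or more union regions. Most genes of this list had fewer than 10 regions. When members were assigned only within 50 kb of a gene, the node share was 2.5%, against 2.06% near all genes. Foxa2, Lhx1 and Sox9, with 1 member each, stand in this list and in the endoderm list. The member of Noto, a homeobox factor of the node, lay 7.57 kb outside the gene (chromosome 6, 85415452 to 85416313). It stood at 67.1 and 89.4 in dHx High and Middle, against 92.9 and 89.6 in WT High and Middle. Foxj1, the regulator of motile cilia, had a member 3.18 kb outside the gene (chromosome 11, 116326810 to 116327528). It stood at 56.8 and 69.0 in dHx High and Middle, against 72.9 and 69.3 in WT High and Middle. Ccdc39, Dnah5 and Dnah11, which encode parts of motile cilia or factors of their assembly, had 1 member each. The other 18 genes of the list had none, among them the signalling genes Nodal (5 regions), Lefty1 (6), Lefty2 (4), Chrd (4), Nog (16) and Dand5 (3). The notochord factor T (1 region) had none either, nor had Rfx3 (6), Pkd1l1 (5), Arl13b (4) and Tekt1 (2), which act in cilia. Nog and Lefty2 had 2 regions each that were found only in both Negative lists.

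In the hedgehog pathway, 7 of 180 regions were members (3.89%, 1.58 to 7.85%), against 2.10% near all genes. They lay at 5 of 18 genes (27.8%), against 7.26% of all genes and 29.9% of genes with 10 or more union regions. Most genes of this list, too, had fewer than 10 regions. Shh and Ptch1 are in the node list too. Shh, the ligand secreted by the notochord, had 2 members of 8 regions. The member 96.0 kb outside Shh (chromosome 5, 28563067 to 28563966) stood at 89.2 and 64.8 in dHx High and Middle, against 65.6 and 85.3 in WT High and Middle. The member inside Shh (28458857 to 28459917) stood at 62.3 and 28.7 in dHx High and Middle, against 18.0 and 48.3 in WT High and Middle. Hhip, a membrane protein that binds and sequesters hedgehog ligands, had 2 members of 9 regions. The member inside Hhip (chromosome 8, 80054087 to 80054603) was even over the lists, at 77.2 and 80.6 in dHx High and Middle, against 78.4 and 81.5 in WT High and Middle. The receptor Ptch1, the co-receptor Boc and the acyltransferase Hhat had 1 member each, and the effectors Gli1 (4 regions), Gli2 (30) and Gli3 (17) had none.

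Among epithelial adhesion, keratin and basement membrane genes, 17 of 316 regions were members (5.38%, 3.16 to 8.47%), against 2.10% near all genes. They lay at 12 of 40 genes (30.0%), against 7.26% of all genes and 29.9% of genes with 10 or more union regions. Most of the 40 genes had fewer than 10 regions, so the last share is not a like reference. Cdh1, which encodes E-cadherin, had 3 members of 15 regions and is also in the endoderm list. The member 2.35 kb outside Cdh1 (chromosome 8, 106672599 to 106673113) stood at 94.2 and 69.0 in dHx High and Middle, against 65.6 and 14.0 in WT High and Middle. The member 13.8 kb outside the other end (106588612 to 106589545) stood at 6.29 and 16.7 in dHx High and Middle, against 30.2 and 85.3 in WT High and Middle. The list in which the member ranked highest was thus dHx High for one and WT Middle for the other. Cgn, which encodes the tight junction protein cingulin, had a member 16.2 kb outside the gene (chromosome 3, 94803909 to 94804749) at 71.0 and 72.5 in dHx High and Middle, against 78.4 and 69.3 in WT High and Middle. Col4a2, a collagen chain of basement membranes, had 2 members of 14 regions. Its stronger one lay inside the gene (chromosome 8, 11360682 to 11361155), at 67.1 and 85.7 in dHx High and Middle, against 72.9 and 95.4 in WT High and Middle. Magi1, a scaffold of cell junctions, had 2 members of 38 regions, and Grhl2 and Ovol2, epithelial transcription factors, had 1 each. No member lay at the other 28 genes of the list. Among them were the keratins Krt8 (7 regions), Krt18 (10) and Krt19 (5) and the tight junction genes Ocln (8), Tjp1 (16) and Tjp3 (7).

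**Figure D4:**
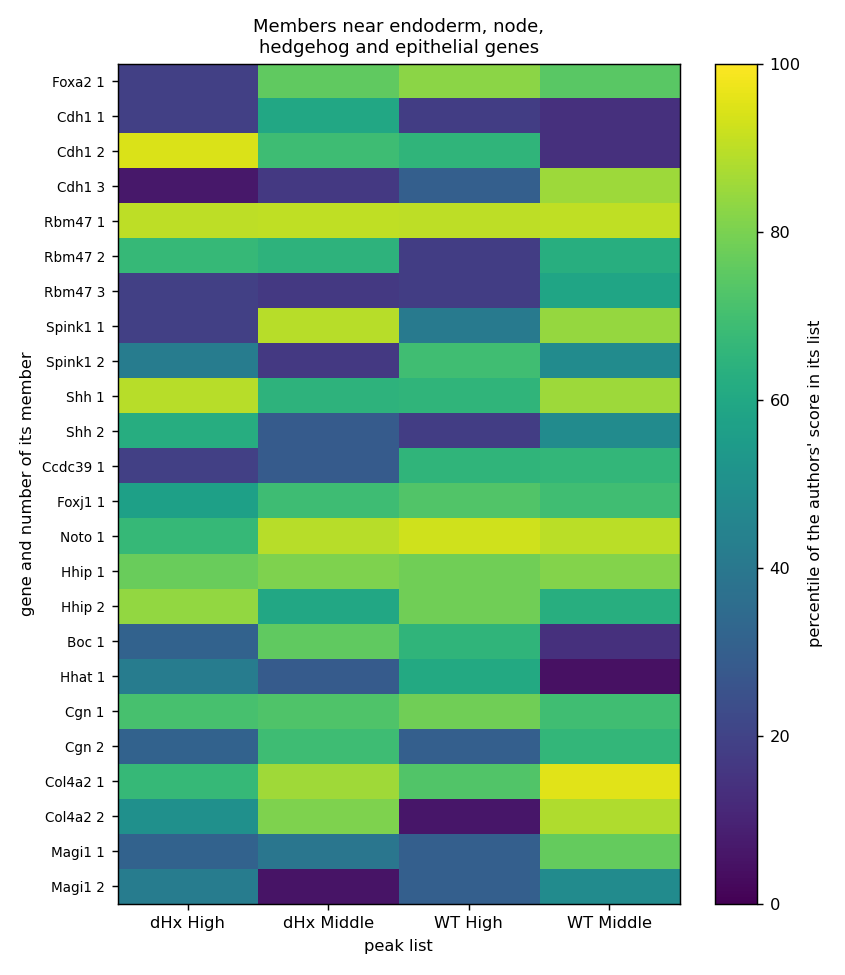
Rows are members near the named endoderm, node, hedgehog and epithelial genes, numbered within a gene by their lowest percentile, and columns are the 4 RFP-positive lists. Colour gives the percentile of the authors' score in a list, from 0 (dark) to 100 (yellow). The first member of Rbm47 was at 90.1 to 90.3 in each list, whereas the second of Cdh1 was at 94.2 in dHx High and 14.0 in WT Middle.

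The lists of epiblast, mesoderm, blood and primitive streak genes had member shares of 0.459 to 2.16%, against 2.10% near all genes. Near epiblast and neuroectoderm genes 1 of 218 regions was a member (0.459%, 0.0116 to 2.53%), inside Otx2, a factor that the endoderm list also holds. This member (chromosome 14, 48662883 to 48663532) stood at 62.3 and 69.0 in dHx High and Middle, against 40.9 and 69.3 in WT High and Middle. The list had 10 regions found only in both Negative lists (4.59%, against 2.82% near all genes). Near lateral and cardiac mesoderm genes 6 of 278 regions were members (2.16%, 0.796 to 4.64%), and 22 (7.91%) were found only in both Negative lists. Bmp2, a BMP ligand, held 3 of those 6 members, 29.8 kb to 59.8 kb outside the gene on chromosome 2. Near blood and endothelium genes 2 of 145 regions were members (1.38%, 0.167 to 4.89%), at Tek and Mecom. Near primitive streak genes they were 3 of 195 (1.54%, 0.318 to 4.43%), at Eomes, Mixl1 and Axin2. The visceral endoderm list had 6 of 134 (4.48%, 1.66 to 9.49%), of which 2 were those of Sox17 and 1 was at Ttr, which encodes transthyretin. The extraembryonic list had 4 of 174 (2.30%, 0.630 to 5.78%) and the ubiquitous list 4 of 111 (3.60%, 0.990 to 8.97%). The intervals cover counting error only, and several lists share genes and members. They are thus no test of which lists differ from the 2.10% near all genes.

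Some members lay in stretches. Counting members that followed each other within 100 kb, the 2005 members formed 1704 stretches, of which 1466 held a single member, 196 held 2 and 42 held 3 or more. Members had 22845 neighbours within 100 kb, counting a region once for each member it neighbours, and 692 of these (3.03%) were members, against 2.15% of all union regions. Regions found only in both Negative lists made up 2.32% of those neighbours, against 2.90% of all union regions. Regions of dHx High and dHx Middle alone made up 0.740% of the neighbours, against 0.605% of all union regions, and those of WT High and WT Middle alone made up 0.902%, against 0.974%. A raised share around its own kind was not particular to members. Around regions of WT High and WT Middle alone it was 2.41%, and around those of dHx High and dHx Middle alone 0.921%. For regions of both Negative lists alone it was 3.79%, and for those of all 6 lists 18.4%, against 14.1% of all union regions.

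The stretch with the most members lay inside Palld (chromosome 8, 61556134 to 61713726), where 7 of 14 union regions over 158 kb were members. None of the 14 had peaks in exactly the High and Middle lists of 1 genotype or in exactly both Negative lists, and 1 had a peak in dHx Middle alone. The strongest Palld member (61686510 to 61687552) stood at 93.2 and 87.1 in dHx High and Middle, against 84.2 and 80.0 in WT High and Middle. The Palld member with the lowest single percentile (61573321 to 61573844) stood at 81.9 and 5.38 in dHx High and Middle, against 40.9 and 24.4 in WT High and Middle. A second stretch with 5 members of 18 regions lay at A4galt, Arfgap3 and Pacsin2 on chromosome 15 (83220053 to 83412151). Another, with 5 members of 14 regions, lay at Chst15, which encodes a sulfotransferase of chondroitin sulfate, on chromosome 7 (132250191 to 132455961). The strongest member in Chst15 (132250191 to 132251171) stood at 88.1 and 89.4 in dHx High and Middle, against 72.9 and 96.1 in WT High and Middle.

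**Figure D5:**
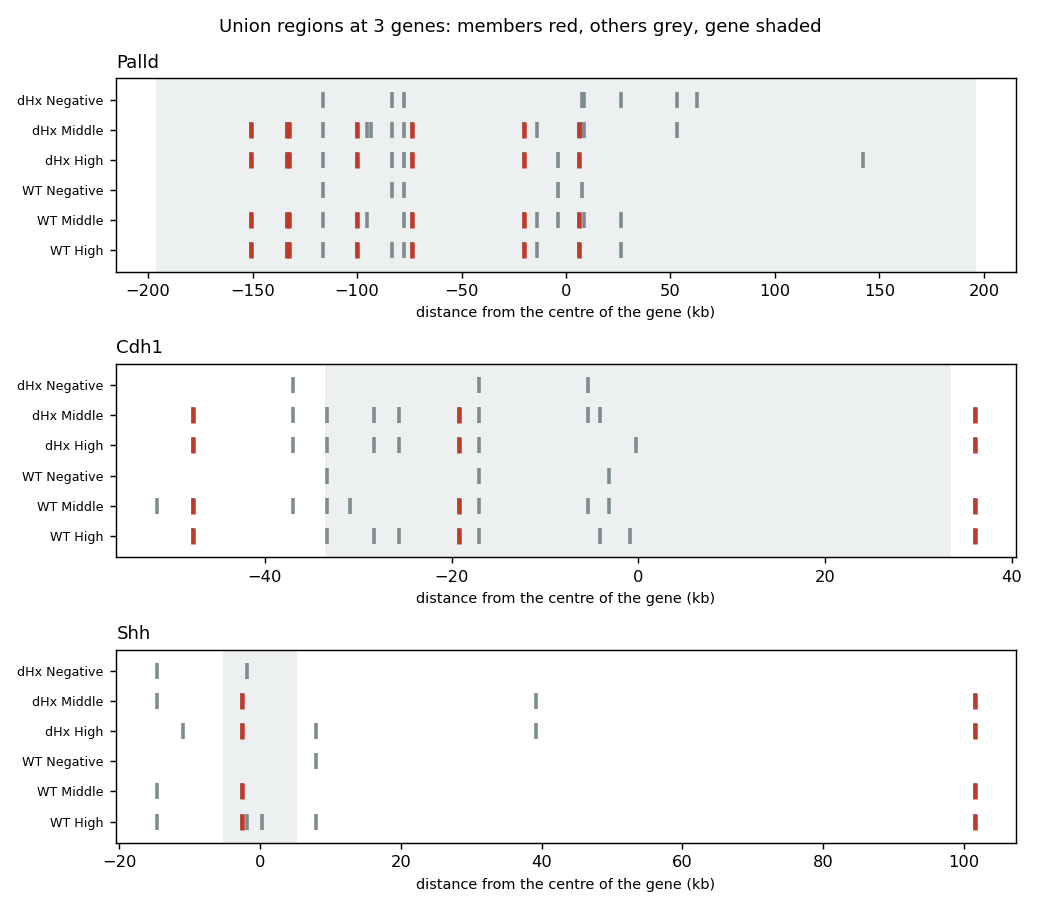
Each panel shows the union regions assigned to 1 gene by their distance in kb from the centre of the gene (x axis), with a row for each of the 6 lists, where a tick stands for a region with a peak in that list. Members are red, other regions are grey and the gene body is shaded. Palld held 7 members of 20 regions, Cdh1 3 of 15 and Shh 2 of 8.

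Other genes with many members were long or rich in regions. Pard3, a polarity protein of epithelial cells, had 4 of 38, Tle3, a corepressor of the Groucho family, 4 of 36, Slc39a11, a zinc transporter, 4 of 34, and Nrxn3, a neurexin, 4 of 51. Nedd9, a scaffold protein of focal adhesions, and Ccdc34 had 3 of 12 each, and Mtcl1, a microtubule crosslinker, had 3 of 17. The Nedd9 member with the highest lowest percentile (chromosome 13, 41342994 to 41344226) stood at 62.3 and 89.4 in dHx High and Middle, against 84.2 and 74.4 in WT High and Middle. By chromosome, the share of union regions that were members ran between 1.57% on chromosome 14 and 2.77% on chromosome 18.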

How the data were processed

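The study's ATAC-seq of 12 sorted samples, 2 for each genotype and RFP level, was deposited as 6 peak lists on mm10. The submitters' processing notes name STAR 2.5.2a and MACS2 without role or setting. Per the peak names in the deposited files, each list was made from pooled reads. The deposited score column has no name, and the authors' score was used only to rank peaks within a list. A peak with several lines of the same start and end was taken as 1 peak with its highest score. Lists were merged and compared by overlap of at least 1 bp with pandas 2.3.3. Regions went to the closest protein-coding gene, up to 100 kb away, in a RefSeq table (GRCm38.p6) without strand, and gene ends replaced the planned gene starts. No genome sequence was used here, so letters were searched only in RefSeq promoter windows, with chromosome 18 not used.

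Members, gene lists (11 lists, 295 entries) and comparisons were chosen with earlier results of these data known. Of the listed genes, 7 lie on chromosomes X or Y and were left out. Named genes were Foxa2, the 10 genes with most members and up to 4 of each list; named regions were the 10 with the highest lowest percentile, the best members of the named genes, the edge of the rule and the 3 stretches with the most members. Which of these were printed, the promoter sequences, and other genes of the lists were chosen after their values were seen. The rule named 1 more gene, which is not reported here. Shares carry Clopper-Pearson intervals (SciPy 1.17.1). The union, the rule and the gene assignment were tested on simulated data. Depth is unknown.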

Additional observations from a re-analysis of the deposited data

How the results depend on the processing

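No paired analysis was possible because each deposited list pools its samples, and for the same reason no replicate could be left out. The number of members was 1911 with lists of equal length and 1425 when a peak had to cover 50% of a region to count. That cover was asked of Negative peaks too, so the 1425 include regions with a smaller Negative peak. Members numbered 2002 when peaks up to 100 bp apart were merged and 1871 without a Negative peak within 1 kb. The number was 1261 with peaks of score 5 or more, 997 with the strongest 20000 peaks of each list and 3324 when dHx Negative was not used. It was 9980 when 1 RFP-positive list of each genotype sufficed, an alternative chosen after the data were seen. Members near a gene end made up 14.7% when peaks, Negative ones included, had to cover 50% of a region to count. They made up 5.04% within 500 bp, 10.7% within 2 kb and 9.44% with 1 list of each genotype. Genes with members numbered 4476 when a member counted for every gene within 100 kb and 5544 with 1 list of each genotype. The endoderm share was 4.5% with 50% cover, against 1.53% near all genes. With 1 list of each genotype it was 23.25%, against 10.7% near all genes. The ratio of these shares ran between 2.18 and 3.58 over the alternatives run, and was lowest with 1 list of each genotype. The letters TGTTTA stood in 22.7% of the promoter windows under members, against 13.5% of all windows. Under regions of WT High and WT Middle alone they stood in 25.5% of 47 windows, so the raised share was not particular to members. Under regions of dHx High and dHx Middle alone they stood in 6.15% of 65 windows. At a GC content of 40 to 60% the share was 31.6% under members and 31.4% under those WT regions. It was lower under those dHx regions. The longer letters stood in 16.5% of windows under members at that GC content. Letters in whole regions were not run, for want of a genome sequence here. Read numbers are unknown here, so what depth limits could not be measured.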
